A study of Mus musculus with 12 samples.

Results

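The nuclear genes of the mitochondrial respiratory chain were examined in chromatin maps of fetal mouse lung epithelium. The genes were the protein-coding RefSeq genes on chromosomes 1 to 19 whose symbol starts with Nduf, Uqcr or Atp5, or with Cox followed by a digit from 4 to 8. There were 89 of them among 20661 protein-coding genes. They comprised 37 subunits of complex I, 8 assembly factors of complex I, 8 subunits of complex III, 19 genes of complex IV and 17 subunits of complex V.

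The maps came from CUT&RUN, which uses a nuclease tethered to an antibody to free the chromatin next to the antibody's target. Lungs of pooled wild-type C57Bl6 fetuses at E17.5 were dissociated, cells carrying the surface protein EpCAM were collected on magnetic beads, and 100000 of them entered each reaction. Peak lists were used for 3 NKX2-1, 3 H3K4me3, 2 PRDM16 and 1 PRDM3 library, all from the same wild-type genotype with no treatment. The rabbit antibody gave PRDM16 replicate 1 and the sheep antibody PRDM16 replicate 2. The 3 IgG control samples were not analysed here, and the labels do not say whether replicates came from separate pools of animals.

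Complexes I, III and IV pass electrons to oxygen and pump protons across the inner mitochondrial membrane, and complex V, the ATP synthase, uses the proton gradient to make ATP. Most of their subunits are encoded in the nucleus, and a few, chiefly of complex IV, exist as alternative forms for muscle, testis or low oxygen. Promoters of these genes are textbook targets of NRF1 and of the ETS factor GABPA, with the coactivator PGC-1α (Ppargc1a) as a regulator of mitochondrial biogenesis. NKX2-1 is the homeodomain factor that defines lung epithelium. PRDM16 and PRDM3, the latter also called EVI1 and encoded by Mecom, share a family of zinc-finger proteins. PRDM16 is known for its part in the brown fat programme, in which respiratory genes are active. H3K4me3 marks active promoters.

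A region of a target was a stretch covered in at least 2 of 3 libraries for H3K4me3 and NKX2-1, in both libraries for PRDM16 and in the 1 library for PRDM3, whose regions therefore have no replicate check. A gene was counted when a region lay within 1 kb of either annotated gene end, because the gene table gives no strand. The factor lists hold many weak peaks. The share of peaks with a deposited −log10 q of at least 1.3 was 76.4%, 11% and 13.2% in NKX2-1 replicates 1 to 3, 44.9% and 45.1% in PRDM16 replicates 1 and 2, 42.6% in PRDM3, and 100% in each H3K4me3 library. Of 15 marker genes of lung epithelium 14 had an H3K4me3 region at an end, the exception being Cldn18, as against 2 of 8 markers of mesenchyme, 2 of 6 of endothelium and 1 of 8 of immune and blood cells.

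Most respiratory chain genes carried the active promoter mark and had peaks of all the factors mapped. An H3K4me3 region lay at an end of 80 of the 89 genes, or 89.9% (95% Wilson interval 81.9% to 94.6%, counting error only), against 57.1% of all genes. Each of the 3 H3K4me3 libraries alone gave the same count of 80 genes, while the share of all genes was 60.2%, 57.3% and 55.7%. An NKX2-1 region was present at 68 genes, or 76.4%, against 45.8% of all genes. A PRDM16 region was present at 60 genes, or 67.4%, against 50.5%, and a PRDM3 region at 66 genes, or 74.2%, against 49.7%. Regions of all 3 factors occurred at 48 genes, or 53.9%, against 35.9%. The factor counts rest in part on weak peaks. With only peaks of −log10 q of at least 5, respiratory genes lay below all genes for NKX2-1 (4.49% against 6.42%), PRDM16 (19.1% against 20.9%) and all 3 factors (1.12% against 2.85%), and above them for PRDM3 (15.7% against 11.9%). With the milder limit of 2 they lay above all genes for each factor, by 28.1% against 20% in the case of NKX2-1, and the H3K4me3 count was 80 at both limits.

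Factor regions lay mostly at genes with the mark, 9199 of the 9453 genes with NKX2-1 for example, so the 80 marked respiratory genes were also set beside the 11805 genes with an H3K4me3 region at an end. NKX2-1 was present at 85.0% of them (95% Wilson interval 75.6% to 91.2%) against 77.9% of all marked genes. PRDM3 was present at 82.5% (72.7% to 89.3%) against 80.1%, and PRDM16 at 73.8% (63.2% to 82.1%) against 81.5%. Regions of all 3 factors were present at 60.0% (49% to 70%) against 62.1%. Each of these 4 intervals, from the full lists, holds the value of all marked genes. For NKX2-1 the order turned with stronger peaks, to 31.2% against 34.9% at −log10 q of at least 2. In lists of the 14000 strongest peaks it was 45.0% against 51.1%. PRDM16 stayed below, at 58.8% against 62.9% with the limit of 2 and 21.2% against 36% with a limit of 5. In the lists of 14000 peaks PRDM16 was at 23.8% against 36.5%. All 3 factors also lay below, at 20% against 22.3%, 1.25% against 5% and 13.8% against 22.3% in the same order. PRDM3 lay above with the limit of 2 (57.5% against 51.2%) and in the lists of 14000 peaks (56.2% against 49.7%), and below with the limit of 5. Another protein-coding gene end lay within 1 kb of an end of 49 of the 89 genes, or 55.1%, against 25.6% of all genes. Over marked genes it was 57.5% against 36.2%. A peak at such an end belongs to either gene. Among the 40 respiratory genes without such a neighbour 34 had H3K4me3, or 85.0% against 49.0% of all genes without one. NKX2-1 was at 28 (70.0% against 38.4%), PRDM16 at 24 (60.0% against 43.6%) and PRDM3 at 27 (67.5% against 42.7%). Over marked genes without a neighbour NKX2-1 was at 82.4% against 75.4% and PRDM3 at 79.4% against 78.1%. PRDM16 lay below there, at 67.6% against 80.1%.

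The libraries of a factor did not contribute equally. Peaks of NKX2-1 replicates 1 to 3 lay at the ends of 77, 62 and 64 of the 89 genes, against 59.3%, 42.1% and 49.0% of all genes. Over marked genes alone the shares were 96.2%, 76.2% and 80% of the respiratory genes and 93.5%, 65.9% and 76.7% of all. Peaks of the rabbit PRDM16 library lay at 77 genes, against 65.0% of all genes, and peaks of the sheep PRDM16 library at 67, against 57.9%. Over marked genes the rabbit library gave 95% of respiratory genes against 94.7%, and the sheep library 82.5% against 87.6%. PRDM3 peaks lay at 66 genes. In these full lists the sheep PRDM16 library was the one factor library in which marked respiratory genes lay below all marked genes. In lists of the 14000 strongest peaks they also lay below in NKX2-1 replicates 1 (60.0% against 64.1%) and 2 (38.8% against 40.8%) and in the rabbit PRDM16 library (52.5% against 56.8%), beside 36.2% against 47.3% in the sheep library. Peaks of all 6 factor libraries were present at 41 genes, or 46.1%, against 28% of all genes. Over marked genes the share was 51.2% of the respiratory genes against 48.6% of all.

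**Figure D1:**
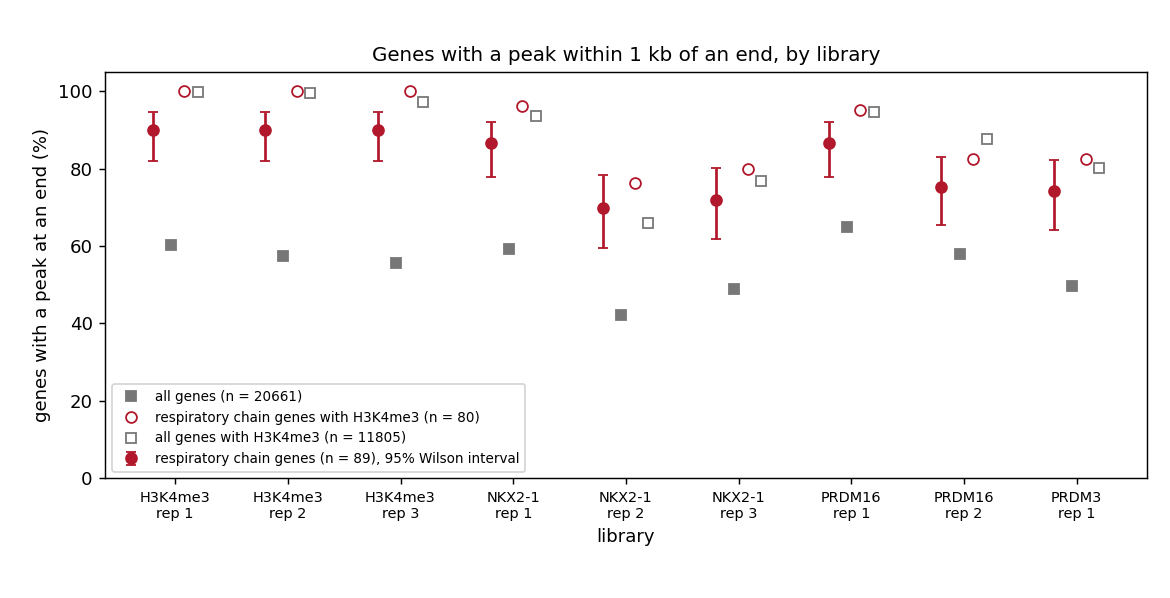
Share of genes with a peak within 1 kb of an end in each of the 9 libraries (x axis), in percent (y axis). Filled circles are the 89 respiratory chain genes with 95% Wilson intervals and filled squares all 20661 genes. Open circles and squares are the 80 and 11805 genes among them with an H3K4me3 region, and in these full lists the open circle lies below the open square for PRDM16 replicate 2 alone.

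The factors combined at the ends of these genes in an uneven way. Both ends of a gene were pooled, so a combination need not lie at a single promoter. Counted at listed start sites alone, all 3 factors were present at 38 of 72 genes, or 52.8% against 38.2% of all genes. Among marked genes that was 55.1% against 63.6%. The counts below are for either end. NKX2-1 without PRDM16 was found at 18 genes, or 20.2%, against 5.64% of all genes, and at 22.5% of marked respiratory genes (95% Wilson interval 14.7% to 32.8%) against 8.95% of marked genes. This count was chosen after its values were seen. Of the 18 genes, 14 had PRDM3 as well, which is 15.7% against 3.49% of all genes and 14 of the 80 marked respiratory genes (10.7% to 27.3%) against 5.87% of marked genes. They were Atp5c1, Atp5e, Cox6b2, Ndufa6, Ndufa9, Ndufab1, Ndufaf6, Ndufaf7, Ndufb4, Ndufc2, Uqcrb, Uqcrc1, Uqcrfs1 and Uqcrq. The other 4, with NKX2-1 and neither PRDM protein, were Atp5a1, Cox5b, Ndufa5 and Ndufaf2, or 4.49% against 2.15% of all genes. Over marked genes that was 5% against 3.07%.

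PRDM16 without NKX2-1 was at 11.2% of marked respiratory genes against 12.5% of all marked genes. In all it occurred at 10 genes, or 11.2%, against 10.4% of all genes. Among them Atp5pb, Ndufb8, Ndufs4 and Ndufv1 also had PRDM3, and Cox5a, Ndufa7, Ndufb10, Ndufs5, Ndufs7 and Ndufv3 did not. Cox5a is counted here by its ends, although NKX2-1, PRDM16 and PRDM3 were all present at its listed start inside the gene. PRDM3 without NKX2-1 occurred at 4 genes, or 4.49%, against 10.3% of all genes. Over marked genes it was 5% against 12.2%. No respiratory gene had PRDM3 alone. Within the first of the 2 series of peak names, which holds PRDM16, PRDM3 and replicate 1 of NKX2-1 and of H3K4me3, PRDM16 without NKX2-1 was counted at 2 genes (2.25% against 2.92% of all genes) and PRDM3 without NKX2-1 at 0 (against 3.19%). NKX2-1 without PRDM16 was counted there at 19 genes, or 21.3% against 11.7% of all genes, and 23.8% against 15.0% of marked genes, a smaller gap than in the full set. The counts without NKX2-1 move with the NKX2-1 libraries used. Without NKX2-1 replicate 1, PRDM16 without NKX2-1 was at 28 genes (31.5% against 24.4%) and PRDM3 without NKX2-1 at 27 (30.3% against 24.1%). Without replicate 2, PRDM3 without NKX2-1 was at 8 (8.99% against 14.3%). Without replicate 3 the first was at 21 (23.6% against 19.3%) and the second at 18 (20.2% against 18.9%). PRDM3 without NKX2-1 thus lay below all genes with all libraries and above them without replicate 1 or 3. Set beside marked genes it stayed below, at 33.8% against 35.5% without replicate 1 and 22.5% against 26.7% without replicate 3. For PRDM16 without NKX2-1 the marked shares were 33.8% against 36% and 25% against 27.4%. NKX2-1 itself was counted at 40 genes without its replicate 1.

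**Figure D2:**
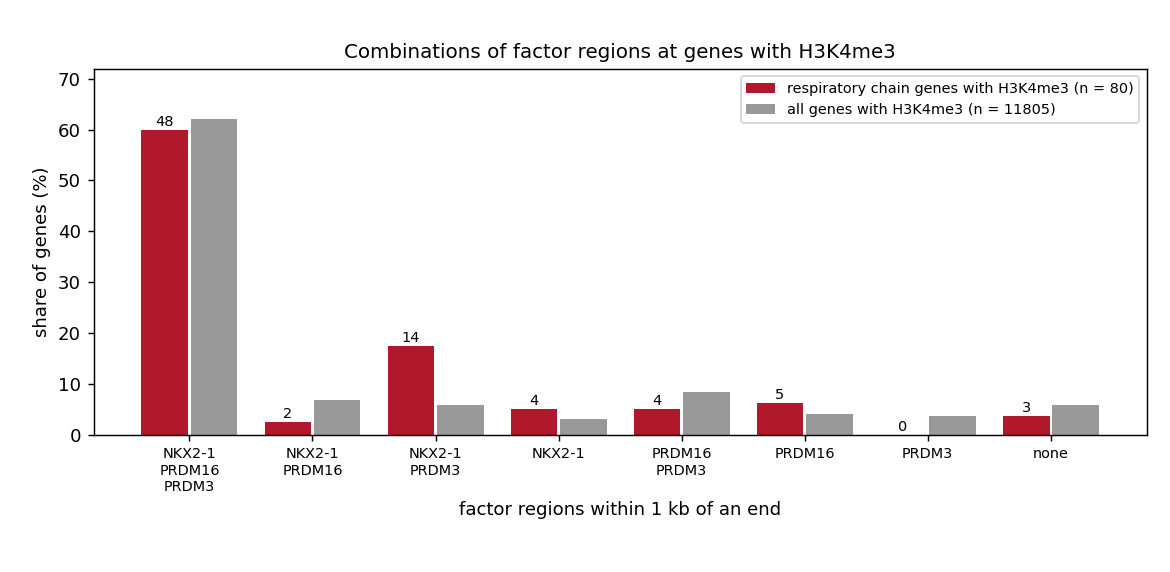
Share of genes (y axis, percent) with each combination of factor regions within 1 kb of an end (x axis), for the 80 respiratory chain genes with H3K4me3 (red) and all 11805 genes with H3K4me3 (grey). Numbers above the red bars are gene counts, and the bars for NKX2-1 with PRDM3 stand for 14 of the 80 genes and 5.87% of all marked genes.

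At most of those 18 genes 1 of the 2 PRDM16 antibodies did give a peak. A rabbit PRDM16 peak without a sheep peak was present at 14 of the 18, a sheep peak without a rabbit peak at 2 (Cox6b2 and Ndufa9), and peaks of both that did not overlap at 2 (Atp5a1 and Uqcrfs1). Over all 1166 genes with NKX2-1 and no PRDM16 region, 60.0% had a rabbit peak alone, 14.0% a sheep peak alone, 17.8% both and 8.15% neither, so the 14 are 77.8% against 60.0%. Over all 80 marked respiratory genes a rabbit peak without a sheep peak occurred at 14, against 9.99% of marked genes and 11.4% of all genes. With the rabbit library alone the count of genes with NKX2-1 and no PRDM16 was 2, or 2.25% against 1.25% of all genes. With the sheep library alone it was 14, or 15.7% against 3.85%. Without NKX2-1 replicate 1 it was 8. The antibody and the replicate cannot be told apart here, since each antibody was used in 1 library.

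**Figure D3:**
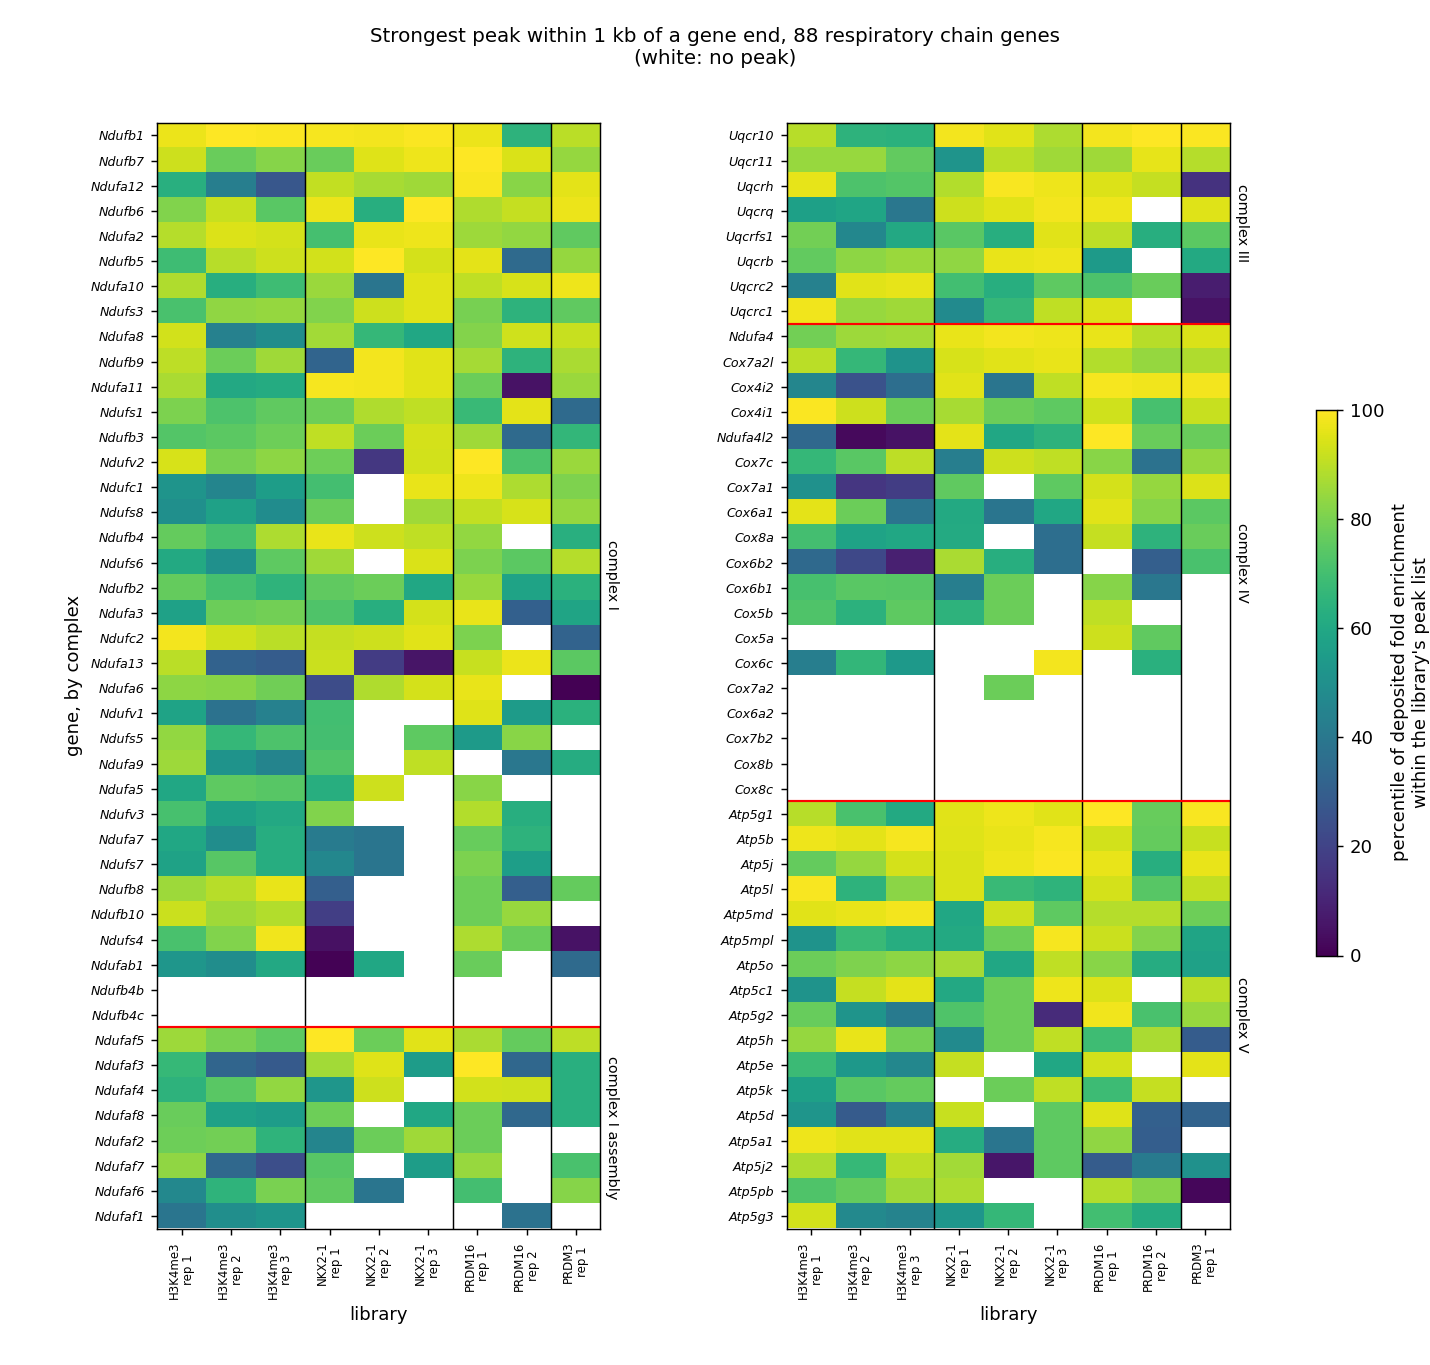
Strongest peak within 1 kb of an end of 88 respiratory chain genes (rows, grouped by complex) in each of the 9 libraries (columns), coloured by the percentile of its deposited fold enrichment in that library's own list. White means no peak, and rows within a complex run from the highest to the lowest mean percentile over the 6 factor libraries, with Ndufb1 at 91.3 on top in complex I and Uqcr10 at 96.5 in complex III.

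Complex I takes electrons from NADH. Of its 37 subunit genes 34 had H3K4me3, 26 NKX2-1, 28 PRDM16, 28 PRDM3 and 20 all 3 factors. These are 91.9%, 70.3%, 75.7%, 75.7% and 54.1%. For this and the groups below, the shares of all genes were 57.1%, 45.8%, 50.5%, 49.7% and 35.9% in that order. Over all marked genes the factor shares were 77.9%, 81.5%, 80.1% and 62.1%. Of the 10 genes with PRDM16 and no NKX2-1, 8 belonged to this complex. That is 21.6% of its 37 genes, against 10.4% of all genes. The 7 core subunits of complex I carry the flavin and the iron-sulphur clusters or bind quinone, and 6 of their genes had H3K4me3. PRDM16 was present at 6 of the 7 (85.7%), PRDM3 at 5 (71.4%) and NKX2-1 at 4 (57.1%). Ndufs7 and Ndufv1 were core genes with PRDM16 and no NKX2-1. At Ndufv1, which encodes the flavin-carrying subunit, the deposited fold enrichment was 9.59 and 3.15 in the PRDM16 libraries and 3.89 in PRDM3. NKX2-1 had a peak there of 4.86 in replicate 1 and none in replicates 2 and 3, so the call turned on the weaker NKX2-1 lists.

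The highest-ranked complex I genes were 3 accessory subunits. Ranks were the mean over the 6 factor libraries of the percentile of the strongest peak at an end within its own list, with 0 for no peak. Ndufb1 had a mean percentile of 91.3, with NKX2-1 peaks of 13.9, 5.70 and 7.19 in fold enrichment, PRDM16 peaks of 11.3 and 3.84, and a PRDM3 peak of 5.47. Its H3K4me3 peaks, of 33.4, 94.3 and 70.1, were the strongest of all 89 genes in replicates 2 and 3. Ndufb7 also had a mean percentile of 91.3, with 5.56, 4.37 and 5.59 in the NKX2-1 libraries, 20.3 and 7.41 in those of PRDM16, and 4.86 in the PRDM3 library. Ndufa12 followed at 90.2, with 8.09, 3.44 and 3.54 in the NKX2-1 libraries, 16.6 and 5.0 in those of PRDM16, and 7.17 in the PRDM3 library. All 6 factor libraries had a peak at each of the 3 genes. An end is shared with Cpsf2 at Ndufb1 and with Tecr at Ndufb7, while Ndufa12 shares none.

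Assembly factors of complex I are not part of the finished enzyme. All 8 had H3K4me3, and NKX2-1 was present at 7 (87.5%), PRDM3 at 6 (75%) and PRDM16 at 4 (50%). Ndufaf5 was the highest-ranked, with a mean percentile of 87.7. Its NKX2-1 peak in replicate 1, of 21.5, was the strongest of that library at any respiratory gene, and the other replicates had 3.26 and 4.79. Its PRDM16 peaks were 6.40 and 4.56 and its PRDM3 peak 5.60. All of these lay at the end that Ndufaf5 shares with Esf1. Ndufaf3 shares its ends with Impdh2 and Dalrd3. It had 20.5 in the rabbit and 2.92 in the sheep PRDM16 library, at percentiles of 99.6 and 33.6 of their lists. Ndufaf4 had 8.32 and 7.0 in those libraries, and NKX2-1 peaks of 4.05 and 4.07 in replicates 1 and 2 only. Ndufaf1 had H3K4me3 peaks of 10.9, 30.0 and 27.9, and its only factor peak was one of 2.96 in the sheep PRDM16 library.

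Complex III carries electrons from quinol to cytochrome c. All 8 of its genes had H3K4me3. NKX2-1 and PRDM3 were each present at all 8, against 77.9% and 80.1% of all marked genes. PRDM16 was present at 4, or 50%, against 50.5% of all genes and 81.5% of all marked genes. The 4 without PRDM16 were Uqcrc1 (a core protein), Uqcrfs1 (the Rieske iron-sulphur protein) and the small subunits Uqcrb and Uqcrq. At Uqcrq the rabbit PRDM16 peak was 11.8 and the sheep library had none, beside NKX2-1 peaks of 8.59, 4.63 and 6.04 and a PRDM3 peak of 6.81. At Uqcrc1 the rabbit peak was 9.20, again with no sheep peak. At Uqcrb it was 2.95, also with no sheep peak. At Uqcrfs1 both libraries had peaks, of 7.08 and 3.73, which did not share a stretch of 20 bases.

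The other 4 complex III genes had all 3 factors, and one of them led the whole set. Uqcr10, a small accessory subunit, had the highest mean percentile of all 89 genes, 96.5. Its fold enrichment was 13.1, 4.80 and 3.92 in the NKX2-1 libraries, 12.9 and 15.9 in those of PRDM16, and 10.2 in the PRDM3 library. The sheep PRDM16 and the PRDM3 values were the highest of those libraries at any respiratory gene. Its H3K4me3 peaks were 27.1, 40.4 and 33.7, the last 2 below the set's medians of 45.2 and 39.3. Uqcr10 lies at chr11:4701968-4704344 and shares an end with Zmat5. Uqcr11 (mean percentile 83.0) and Uqcrh, the hinge protein (80.9), came next.

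Complex IV, cytochrome c oxidase, had the lowest shares of genes with H3K4me3, NKX2-1, PRDM3 and all 3 factors among the complexes, but not with PRDM16. Of its 19 genes 13 had H3K4me3, 11 NKX2-1, 10 PRDM16, 10 PRDM3 and 9 all 3 factors. These are 68.4%, 57.9%, 52.6%, 52.6% and 47.4%. Ndufa4, once placed in complex I and now counted as a complex IV subunit, ranked next of all genes at 95.5. Its fold enrichment was 11.1, 5.70 and 5.59 in the NKX2-1 libraries, 10.8 and 6.04 in those of PRDM16, and 6.59 in the PRDM3 library, and it shares an end with Phf14. Cox7a2l, which takes part in joining complexes III and IV, had a mean percentile of 91.1.

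The complex IV genes without a mark were mostly alternative forms. Over 10 genes listed as tissue-restricted forms or copies, 4 had H3K4me3 and 3 had all 3 factors. That is 40% and 30%, against 57.1% and 35.9% of all genes. Cox6a2 (heart and muscle), Cox7b2 and Cox8c (testis), Cox8b (muscle and brown fat), and Ndufb4b and Ndufb4c, copies of Ndufb4, had no H3K4me3 region and no peak of any of the 9 libraries at an end. For near-identical copies, the sources used here do not state how the authors treated reads that map to several places. Markers of muscle and brown fat had H3K4me3 at 2 of 6 genes, and Myh6, Actc1, Myl2 and Ucp1 were the 4 without it.

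The widely used partners of these forms were marked. The peaks of Cox4i1 lay at the end it shares with Emc8 and Gm27021. Its H3K4me3 peaks were 39.7, 65.7 and 41.2, the first being the strongest of that library at any respiratory gene. Its factor peaks were 7.08, 3.26 and 3.20 in the NKX2-1 libraries, 8.17 and 3.90 in those of PRDM16, and 5.93 in the PRDM3 library. Cox6a1 had H3K4me3 peaks of 31.8, 49.6 and 20.9, PRDM16 peaks of 9.96 and 4.89 and a PRDM3 peak of 4.18. Cox8a had H3K4me3 peaks of 19.8, 35.9 and 31.6, PRDM16 peaks of 7.54 and 3.82 and a PRDM3 peak of 4.48. Cox6b1 stood apart among them. It had H3K4me3 peaks of 20, 47.4 and 39.2 and single-library factor peaks (NKX2-1 of 3.54 and 3.26 in replicates 1 and 2, PRDM16 of 5.26 and 3.0), but no shared region of any factor at an end.

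Among the alternative forms, 4 carried H3K4me3, and none of these marks ranked above a percentile of 50.5 in its library. Ndufa4l2, a form known to be induced by low oxygen, had H3K4me3 peaks of 9.50, 4.89 and 5.60 at the end it shares with Stac3, at percentiles of 33.7, 2.57 and 3.03 of those lists. At its other end, shared with Shmt2, replicates 2 and 3 had 4.87 and 6.18. Its rabbit PRDM16 peak of 43.6 was the strongest of that library at any respiratory gene, at a percentile of 99.99, whereas the sheep peak was 4.63, at a percentile of 77.0. The NKX2-1 peaks were 10.6, 2.86 and 3.03 and the PRDM3 peak 4.48. These factor peaks lay at the Stac3 end, so the gene they belong to cannot be told apart. The H3K4me3 region was 472 bases wide, the narrowest of the 80.

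Cox7a1, the heart and muscle partner of Cox7a2, was marked at its listed start. Its H3K4me3 peaks were 14.3, 8.51 and 10.3, at percentiles of 50.5, 15.7 and 18.2. Its factor peaks were 5.43 and 3.20 for NKX2-1 in replicates 1 and 3, with none in replicate 2, 8.60 and 5.33 for PRDM16, and 6.79 for PRDM3. The PRDM16 and PRDM3 peaks ranked at percentiles of 93.7, 84.2 and 94.9 of their own lists, where the medians over all marked genes are 89.5, 80.4 and 76.9. No other gene end lay within 1 kb of that start.

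Cox4i2 encodes a form of subunit 4 that is known from lung and from low oxygen. At its lower end in coordinates H3K4me3 was 7.86 and 6.69 in replicates 1 and 2 and absent in replicate 3, and the factor peaks did not exceed 3.50. At its upper end H3K4me3 was 12.9, 12.8 and 19.7, NKX2-1 was 10.2, 2.44 and 4.00, PRDM16 was 14.3 and 9.54, and PRDM3 was 8.82. The upper end lies inside Bcl2l1, whose annotated span covers it. Cox6b2, a testis form, had H3K4me3 peaks of 9.60, 11.1 and 6.98 at a start shared with Fam71e2, NKX2-1 peaks of 7.27, 2.91 and 2.40, a PRDM3 peak of 4.07, no rabbit PRDM16 peak and a sheep peak of 2.61.

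Cox5a and Cox7a2, widely used subunits of complex IV, also had no H3K4me3 at an end but carried the mark further inside the annotated gene. At Cox5a, chr9:57520731-57522750, a region 3403 bases from an end held the listed start, with 25.8, 63.2 and 47.4 for H3K4me3, 7.08, 4.07 and 4.79 in the NKX2-1 libraries, 7.05 and 7.82 in those of PRDM16, and 6.11 in the PRDM3 library. At Cox7a2, chr9:79758624-79760512, a region 3383 bases from an end also held the listed start, with 6.85, 34.8 and 36.1 for H3K4me3, 3.78 and 3.20 for NKX2-1 in replicates 1 and 3, 4.30 and 2.64 for PRDM16, and no PRDM3 peak. Both genes had NKX2-1 and PRDM16 regions inside the mark, and Cox5a PRDM3 as well. Counted at listed start sites, 69 of the 72 respiratory genes with a listed promoter had H3K4me3, and the 3 without it were Cox7b2, Cox8b and Ndufb4b.

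Complex V had the highest shares of genes with PRDM16 and with all 3 factors among the complexes, while complex III led for NKX2-1 and PRDM3. All 17 genes had H3K4me3, 16 NKX2-1, 14 PRDM16, 14 PRDM3 and 11 all 3 factors. The factor shares were 94.1%, 82.4%, 82.4% and 64.7%. The 3 genes Atp5g1, Atp5g2 and Atp5g3 encode the same membrane ring subunit, yet they differed in rank. Atp5g1 had a mean percentile of 94.0, with NKX2-1 peaks of 10.2, 5.10 and 4.79, PRDM16 peaks of 20.8 and 4.61 and a PRDM3 peak of 10.2. Atp5g2 stood at 69.3, with 5.27, 3.26 and 2.23, then 12.9 and 3.95, then 4.97 in the same order. Atp5g3 stood at 41.7, with NKX2-1 peaks of 4.05 and 3.09 in replicates 1 and 2, PRDM16 peaks of 4.00 and 3.59, and no PRDM3 peak. None of the 3 shares an end with another gene, and their H3K4me3 peaks in replicate 1 were 27.1, 22.0 and 29.5, which do not follow that order.

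The next genes of complex V by rank were Atp5b, the catalytic beta subunit, at 92.0, and Atp5j, a stalk subunit, at 91.2. At its listed start Atp5b had NKX2-1 peaks of 4.46, 4.88 and 6.39, PRDM16 peaks of 8.26 and 4.56 and a PRDM3 peak of 5.96. Its other end, shared with Baz2a, had an NKX2-1 peak of 10.1 in replicate 1 and a rabbit PRDM16 peak of 8.40, which entered the rank. Its H3K4me3 region of 3998 bases was the widest of the 80. Atp5j shares its promoter with Gabpa, the gene of the ETS factor named above, and both genes therefore have the same peaks: 9.47, 5.10 and 7.78 in the NKX2-1 libraries, 10.8 and 3.73 in those of PRDM16, and 7.57 in the PRDM3 library. Atp5a1, the catalytic alpha subunit, had strong H3K4me3 (33.9, 71.8 and 57.7) beside NKX2-1 peaks of 4.48, 2.44 and 3.20. Its PRDM16 peaks of 5.60 and 2.55 lay at opposite ends of the gene, and it had no PRDM3 peak.

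Within the lists, respiratory genes ranked above other marked genes for H3K4me3 and below or level with them for most factor libraries. The median percentile of the strongest H3K4me3 peak at a marked respiratory gene was 76.7, 71.7 and 74.2 in replicates 1 to 3, against 69.1, 63.0 and 61.5 over all marked genes. For NKX2-1 it was 77.1, 77.4 and 90.4 against 83.2, 88.1 and 90.4. For PRDM16 it was 88.6 and 74.6 against 89.5 and 80.4, and for PRDM3 77.3 against 76.9. The width of the H3K4me3 region was close to the background, with a median of 1738.5 bases against 1720. By complex the median width ran from 1334 bases in complex IV to 1801 in complex III.

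Summits were placed relative to the start sites of the 74 listed respiratory promoters with H3K4me3. In each library the summit nearest to the start, within 1 kb, was taken. H3K4me3 summits lay downstream, with medians of 171, 175 and 195 bases in replicates 1 to 3 against 206, 203 and 198 over all 11709 marked promoters. PRDM16 summits lay upstream, with medians of -96 and -138 bases, against -17 and -5 over all promoters. The PRDM3 median was -86 against 9.5. NKX2-1 medians were 51, -63 and 30 against 64, 27 and 70. Upstream summits made up 63.4% and 62.3% of the respiratory PRDM16 promoters, against 52.3% and 50.6%, and 54.4% against 48.9% for PRDM3. The spread was wide: the quartiles of rabbit PRDM16 summits were -216 and 74 bases. Within a promoter the rabbit PRDM16 summit lay at a median of -17 bases from the NKX2-1 replicate 1 summit, and 55.1% of the 69 pairs lay within 150 bases of each other, against 53% over all promoters. Other pairs lay that close less often than over all promoters: the sheep PRDM16 and NKX2-1 replicate 1 summits in 51.7% against 54.4%, PRDM3 and NKX2-1 replicate 1 in 42.9% against 47.9%, and the 2 PRDM16 libraries in 51.7% against 61.8%.

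**Figure D4:**
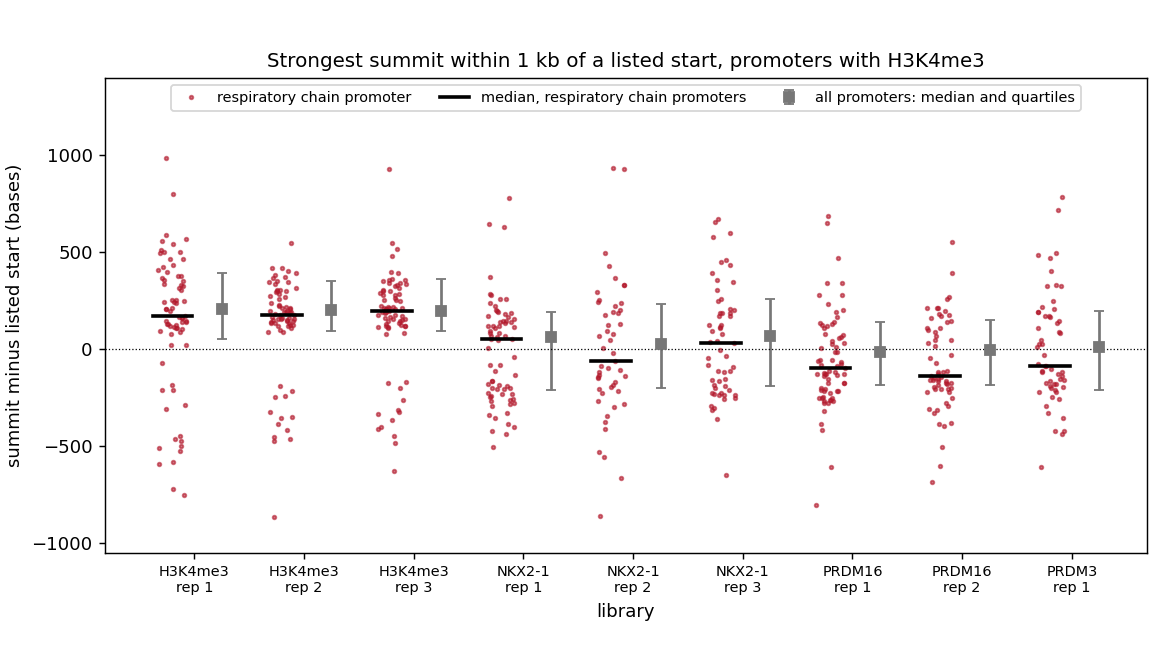
Position of the nearest summit within 1 kb of a listed start (called strongest in the plot title), in each of the 9 libraries (x axis). The y axis gives bases from the start, negative upstream. Red points are respiratory chain promoters with H3K4me3 and black lines their medians; grey squares and bars are the median and quartiles of all 11709 promoters with H3K4me3. PRDM16 medians are -96 and -138 bases for respiratory promoters and -17 and -5 for all.

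Letters of known factor sites were counted in the promoters. RefSeq promoters (GRCm38.p6, from 250 bases before to 50 after the start) were listed for 72 of the 89 genes, 77 promoters in all. Those not listed included Atp5a1, Cox4i1, Cox4i2, Cox6a2, Ndufa4l2, Uqcrb and Uqcrq. Letters were searched on both strands. None of the 9 motifs contains another. GCGCATG, the core of the NRF1 site, was in 14 of the 77 promoters, or 18.2%, against 4.84% of all 20084 promoters. Over promoters with H3K4me3 it was in 18.9% against 7.22%. In 7 of the 14 it stood on both strands with an overlap, so that it read as the full palindrome, which is 9.09% of the promoters against 1.34% of all.

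AANATGG, for YY1, was in 27.3% against 15%, and over marked promoters in 27% against 14%. Its 25 matches began between -225 and 38 bases from the start, 12 of them after the start. CCGGAAG, for ETS factors such as GABPA, was in 22.1% against 11.9%, and over marked promoters in 23.0% against 18.7%. GGGCGGG, for SP1, was in 35.1% of marked respiratory promoters against 51.3%, and in 35.1% against 34.5% over all promoters. CCAAT, for NFY, was in 40.5% against 37.7% and TATAAA, the TATA box, in 9.46% against 5.91%. CAAGTG, a core of the NKX2-1 site, was in 8.11% against 10.3%. AGATAA and GATGAG, cores of the sites of the amino-terminal and carboxy-terminal finger groups of EVI1 (PRDM3), were in 8.11% against 5.19% and 8.11% against 8.86%. A match is a description of the letters and does not show occupancy.

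**Figure D5:**
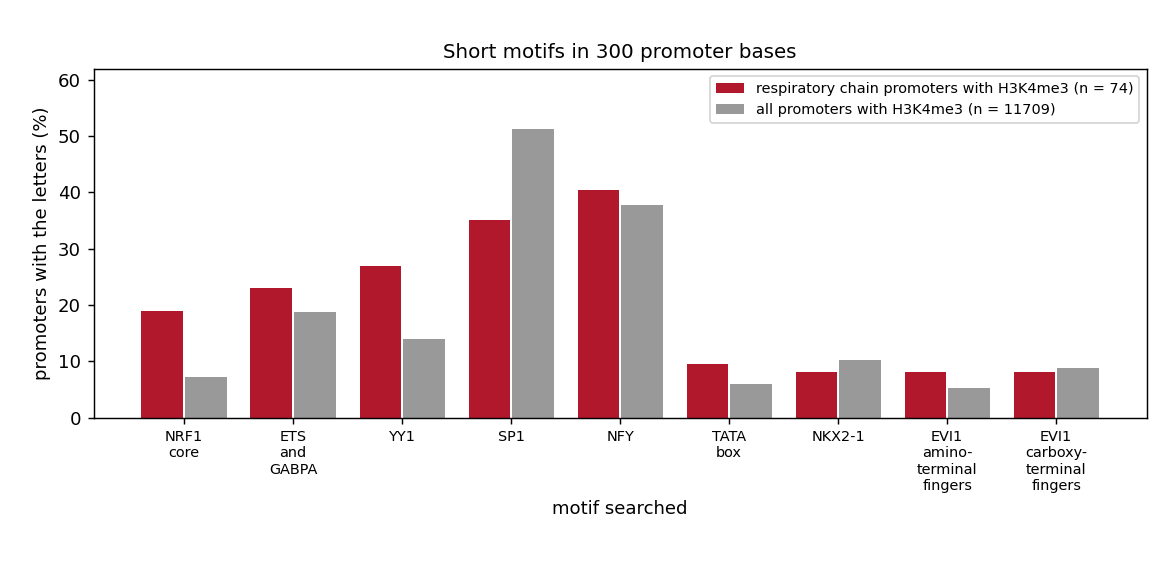
Share of promoters (y axis, percent) that hold each motif (x axis) on either strand in 300 bases around the start, for 74 respiratory chain promoters with H3K4me3 (red) and 11709 promoters with H3K4me3 (grey). The NRF1 core stands at 18.9% and 7.22%, and the SP1 motif at 35.1% and 51.3%.

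Promoters with the same letters differed in their factor regions. The 120 bases before the start are shown for 6 promoters with NRF1 letters, 2 with ETS letters and the unmarked Cox8b, so that the letters can be read beside the peaks. Capitals mark the NRF1 letters in the first 6 sequences and the ETS letters in Ndufb7 and Uqcrh, other motifs are left in lower case, and each is written 5′ to 3′ on the strand of the gene.
Atp5g2: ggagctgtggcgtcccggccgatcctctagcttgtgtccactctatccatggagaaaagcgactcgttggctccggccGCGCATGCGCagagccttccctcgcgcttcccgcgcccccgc
Ndufa11: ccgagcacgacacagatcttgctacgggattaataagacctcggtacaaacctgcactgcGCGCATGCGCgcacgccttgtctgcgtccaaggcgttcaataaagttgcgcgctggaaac
Ndufaf4: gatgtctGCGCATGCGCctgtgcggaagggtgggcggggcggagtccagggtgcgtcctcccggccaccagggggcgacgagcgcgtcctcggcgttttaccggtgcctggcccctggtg
Atp5k: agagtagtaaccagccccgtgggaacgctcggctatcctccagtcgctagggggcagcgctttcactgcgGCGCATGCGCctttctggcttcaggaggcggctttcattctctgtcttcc
Ndufa6: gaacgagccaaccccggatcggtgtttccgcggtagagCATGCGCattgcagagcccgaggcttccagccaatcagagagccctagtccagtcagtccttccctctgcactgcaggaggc
Cox5b: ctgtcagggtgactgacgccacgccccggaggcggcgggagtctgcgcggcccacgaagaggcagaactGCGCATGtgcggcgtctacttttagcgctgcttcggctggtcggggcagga
Ndufb7: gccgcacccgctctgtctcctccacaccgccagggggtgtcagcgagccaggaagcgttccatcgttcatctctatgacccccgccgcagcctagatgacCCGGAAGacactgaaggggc
Uqcrh: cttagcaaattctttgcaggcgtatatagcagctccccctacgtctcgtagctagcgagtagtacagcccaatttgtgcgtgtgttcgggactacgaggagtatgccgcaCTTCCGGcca
Cox8b: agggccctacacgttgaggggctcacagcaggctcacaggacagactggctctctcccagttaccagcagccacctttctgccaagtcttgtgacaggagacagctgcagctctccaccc

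Each stretch ends at the base before the RefSeq start in GRCm38.p6. On the plus strand lie Ndufa11 at chr17:56717642-56717761, Ndufaf4 at chr4:24897963-24898082, Cox5b at chr1:36691367-36691486 and Ndufb7 at chr8:83566638-83566757. On the minus strand lie Atp5g2 at chr15:102671048-102671167, Atp5k at chr5:108434400-108434519, Ndufa6 at chr15:82354292-82354411, Uqcrh at chr4:116075071-116075190 and Cox8b at chr7:140900447-140900566.

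Positions are those of the first base of the letters, counted from the start site. In the first 3 promoters, NRF1 letters stood with regions of all 3 factors at the start. Atp5g2 had its palindrome at -42, while the summits of NKX2-1 lay at 52 and 80 bases in replicates 1 and 3 and those of PRDM16 and PRDM3 at -214, -399 and -358. Ndufaf4 had its palindrome at -113, and its summits clustered after the start, with NKX2-1 at 122 and 93, PRDM16 at 119 and 32, and PRDM3 at 107. Ndufa11, an accessory subunit of complex I, had its palindrome at -60 and summits between -388 and -651 in all 6 factor libraries. Atp5k (letters at -50) had NKX2-1 and PRDM16 but no PRDM3. Ndufa6 (letters at -82) had NKX2-1 and PRDM3 without PRDM16, and Cox5b (letters at -51) had NKX2-1 alone. Cox8b, with none of the capitalised letters, had no peak of any library.

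NRF1 letters were in 10 of 45 respiratory promoters with NKX2-1 and PRDM16 (22.2%) and in 3 of 17 with NKX2-1 and no PRDM16 (17.6%), against 7.62% and 6.30% of all such promoters. ETS letters were in 14 of the 45 (31.1%) and 1 of the 17 (5.88%), against 18.9% and 21.9% of all. At Ndufb7 the ETS letters lay at -20. Its summits were at 8 and 47 bases for PRDM16, 83 for PRDM3 and 81, 78 and 392 for NKX2-1. At Uqcrh, with ETS letters at -10, they lay further off. Its summits were at -218 and -154 for PRDM16, -160 for PRDM3 and -165, -667 and -113 for NKX2-1. CAAGTG occurred in 6 respiratory promoters, those of Atp5o, Cox7a2, Cox7a2l, Cox7c, Ndufa11 and Ndufs6, each with NKX2-1 and PRDM16 at the start. That is 13.3% of the 45 against 10.1% of all such promoters, and 0 of the 17 against 12.2%.

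Away from promoters, few factor regions had these genes as their nearest. A linked region overlapped no H3K4me3 peak, lay more than 1 kb from gene ends and had the gene as its nearest within 50 kb. Such a region of at least 1 factor was found for 34 of the 89 genes, or 38.2%, against 53.3% of all genes. Over marked genes the share was 37.5% against 59.7%. By factor it was 5 genes for NKX2-1 (against 16.5% of all and 20.9% of marked genes), 17 for PRDM16 (against 31.7% and 38.1%) and 27 for PRDM3 (against 45.6% and 51.5%). With the rabbit PRDM16 library alone, that is without replicate 2, 60 genes had such a region of some factor, or 67.4% against 73.6% of all genes and 65.0% against 78.8% of marked genes. Among the 40 respiratory genes with no shared end 21 had one, or 52.5% against 57.2%. Over marked genes with no shared end it was 52.9% against 69.9%. All 3 factors were linked to 2 genes, Uqcrfs1 and Ndufb4, or 2.25% against 12.1% of all genes. Over marked genes it was 2.5% against 15.7%. The median density of peaks within 50 kb was above that of all genes in each factor library. It was 5.24 against 3.58 per 100 kb in NKX2-1 replicate 1 and 4.02 against 3.15 in PRDM3. Among marked genes it lay above in some libraries (5.32 against 4.79 in NKX2-1 replicate 1) and below in others (3.98 against 4.20 in PRDM3).

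At Uqcrfs1 the regions of all 3 factors overlapped about 4 kb outside the gene. The NKX2-1 region lay at chr13:30549045-30549820, with peaks of 4.21, 3.26 and 2.74 in the NKX2-1 libraries, 6.47 and 3.73 in those of PRDM16, and 4.74 in the PRDM3 library. At Ndufb4, an accessory subunit of complex I, NKX2-1 and PRDM16 shared a stretch 16544 bases from the gene, where NKX2-1 was 6.11 and 4.00 in replicates 1 and 3 and PRDM16 was 3.58 and 4.14, and PRDM3 lay apart from them at 28168 bases. Ndufaf4, Cox4i2, Ndufb6 and Atp5mpl followed with regions of 2 factors. Cox4i2 had 9 PRDM regions, all of them inside the annotated span of Bcl2l1, with PRDM16 of 14.3 and 5.33 and PRDM3 of 9.50 at the strongest. The rabbit value of 14.3 is the same as at the upper end of the gene. Regions were counted for each factor separately, so overlapping PRDM16 and PRDM3 stretches count more than once. The unmarked Ndufb4b had 10 such regions, some of them overlapping. This was the highest number of any respiratory gene, and it is named here for that after its value was seen. Those lay inside Dock8, with PRDM16 of 15.5 and 7.45 and PRDM3 of 10.8 about 4 kb from Ndufb4b, so the link by nearest end says nothing of which gene they serve.

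Other mitochondrial genes gave a setting for these values. All 8 genes of complex II and its assembly had H3K4me3 and all 3 factors. Among 78 genes of the mitochondrial ribosome 74 had H3K4me3, 59 NKX2-1, 58 PRDM16 and 60 PRDM3. Over the 74 marked ones NKX2-1 was at 78.4%, PRDM16 at 75.7% and PRDM3 at 79.7%. The shares of all marked genes were 77.9%, 81.5% and 80.1%. NKX2-1 without PRDM16 occurred at 11 of the 78, or 14.1%, against 5.64% of all genes. Of 20 assembly factors of complex IV all had H3K4me3, 16 NKX2-1 (80%), 17 PRDM16 (85%) and 16 PRDM3 (80%), near those shares of all marked genes. None of 4 genes for the assembly or control of the ATP synthase had PRDM16, against 50.5% of all genes. They were Atpaf1, Atpaf2, Atpif1 and Tmem70. NKX2-1 was at 2 of the 4, against 45.8% of all genes, and Atpaf2 had no H3K4me3 region at an end.

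Of 15 regulator genes of mitochondrial biogenesis, 14 had H3K4me3, 13 NKX2-1, 14 PRDM16 and 13 PRDM3. Over the 14 marked ones the factor shares were 92.9%, 100% and 92.9%, against 77.9%, 81.5% and 80.1% of all marked genes. Nrf1 had NKX2-1 peaks of 10.6, 2.91 and 4.95, PRDM16 peaks of 5.16 and 3.12 and a PRDM3 peak of 5.79. Esrra, a nuclear receptor that acts with PGC-1α, had 9.60, 4.07 and 4.91, then 7.01 and 3.03, then 5.83 in the same order. Tfam, which packages mitochondrial DNA, had NKX2-1 peaks of 6.15 and 3.20 in replicates 1 and 3, PRDM16 peaks of 5.93 and 5.25 and a PRDM3 peak of 2.43. Ppargc1a had no NKX2-1 region. It had an NKX2-1 peak of 4.04 in replicate 1 only, PRDM16 peaks of 5.93 and 8.29, a PRDM3 peak of 4.38, and H3K4me3 of 14.6, 25.5 and 17.9.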

How the data were processed

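Peak lists of 9 of the 12 samples were used. The 3 IgG samples (2 rabbit, 1 sheep) were not analysed here. The submitters' processing notes name Trimmomatic, Bowtie2, MACS2, HOMER and mm10 with no version. The sources used here do not state whether the caller was given a control library. Each list holds the authors' deposited score, fold enrichment (a ratio to the caller's background), −log10 p and −log10 q per peak. From the values, that score equals the −log10 p (factor lists) or the −log10 q (H3K4me3 lists) multiplied by 10. Fold enrichment was used within a list only. Read depth is unknown from peak lists, and Wilson intervals cover counting error only.

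Regions were built from stretches of at least 20 bases on chromosomes 1 to 19. Genes are protein-coding RefSeq genes (GRCm38.p6, which mm10 is built on), and 3 matching genes on chromosome X were left out. Regions away from gene ends were linked to the nearest end within 50 kb of their midpoint. The members and lists were chosen with earlier results of these data known, so counts are described beside all genes and no test was run over them. Named genes followed a rule: the alternative forms with their partners, up to 3 genes per complex by mean percentile, all genes without H3K4me3 at an end, genes with PRDM proteins or NKX2-1 only, up to 6 with linked regions, and 5 regulators. Others are named where a count turns on them, and values of 1 gene that the counts include are not reported here. Alternatives were stricter or equal-length lists, other windows, listed starts, summits, left-out libraries, 1 series of peak names, and genes without shared ends. Gene-end calling was tested on simulated peaks. Python 3.11.15, numpy 2.4.6, pandas 2.3.3, scipy 1.17.1 and matplotlib 3.10.9 were used.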

Additional observations from a re-analysis of the deposited data

How the results depend on the processing

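Of 194 values recomputed under alternatives, 132 stayed within 1.5 times the count (or within the binomial interval of a share) and 62 moved. These verdicts concern the counts themselves; set against the share over all genes, the respiratory genes changed side in 19 of the 194. Values of 9 counts follow in the order H3K4me3, NKX2-1, PRDM16, PRDM3, all 3 factors, PRDM16 without NKX2-1, PRDM3 without NKX2-1, NKX2-1 with neither PRDM protein, and linked regions away from ends. Requiring −log10 q of at least 5 left NKX2-1 at 4 genes, PRDM16 at 17, PRDM3 at 14, all 3 factors at 1, PRDM16 without NKX2-1 at 16, PRDM3 without NKX2-1 at 12, NKX2-1 with neither at 2, NKX2-1 without PRDM16 at 3 and linked regions at 2. Respiratory genes then lay below all genes for NKX2-1 (4.49% against 6.42%), PRDM16 (19.1% against 20.9%) and all 3 factors (1.12% against 2.85%), and above them for PRDM3 without NKX2-1 (13.5% against 8.62%). At −log10 q of at least 2, NKX2-1 was at 25, all 3 factors at 16, PRDM16 without NKX2-1 at 30, PRDM3 without NKX2-1 at 25, NKX2-1 with neither at 2, NKX2-1 without PRDM16 at 7 and linked regions at 10, with PRDM3 without NKX2-1 at 28.1% against 16.3% of all genes. In lists of the 14000 strongest peaks, NKX2-1 was at 36, PRDM16 at 19, all 3 factors at 11, PRDM3 without NKX2-1 at 17, NKX2-1 with neither at 7 and linked regions at 8, with all 3 factors at 12.4% against 12.6% and PRDM3 without NKX2-1 at 19.1% against 9.59% of all genes. The share of the 89 genes in those lists was 53.9%, 34.8% and 48.3% with NKX2-1, 48.3% and 32.6% with PRDM16 and 50.6% with PRDM3, against 37.7%, 24.1%, 29.9%, 34.0%, 28.3% and 28.8% of all genes in the same order; marked respiratory genes lay below all marked genes in 4 of these 6 lists. With a peak required in every library, PRDM16 without NKX2-1 was at 24, PRDM3 without NKX2-1 at 20 (22.5% against 21.2% of all genes), NKX2-1 with neither at 2 and NKX2-1 without PRDM16 at 10. In the first series of peak names, PRDM16 without NKX2-1 was at 2 and PRDM3 without NKX2-1 at 0. Among the 40 genes with no shared end the 9 counts were 34, 28, 24, 27, 17, 5, 2, 1 and 21, and NKX2-1 without PRDM16 was at 9; fewer genes were counted there by construction. In a window from 100 bases before to 50 after the start, SP1 letters were in 22.1% (against 27.3% of all promoters), CCAAT in 26.0%, TATAAA in 5.19%, and CAAGTG and AGATAA in 2.60% each.

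The remaining changes of side were in the 2 counts of PRDM16 without NKX2-1 and NKX2-1 with neither PRDM protein, and in PRDM3 without NKX2-1 when NKX2-1 replicate 1 or 3 was left out. With 1 library of a target left out, the lowest and highest counts were 40 and 68 for NKX2-1, 31 and 60 for all 3 factors, 10 and 28 for PRDM16 without NKX2-1, 4 and 27 for PRDM3 without NKX2-1, 0 and 4 for NKX2-1 with neither PRDM protein, 2 and 18 for NKX2-1 without PRDM16, and 33 and 60 for linked regions. The H3K4me3 count was 80 each time and PRDM16 ranged from 60 to 77. PRDM3 has 1 library, which was not left out.

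The smallest counts rest on few genes, and the weak NKX2-1 lists 2 and 3 limit every count that requires 2 NKX2-1 libraries. Apart from the settings whose construction shows the cause, the cause of a move was not tested. No paired analysis was possible because the counts come from no test and replicate numbers do not link libraries of different targets.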
